A study of Mus musculus with 26 samples.

Results

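PaxCre amacrine cells are a subset of GABAergic amacrine cells of the mouse retina, sorted at postnatal day 6 (P6) and profiled as RNA on Affymetrix expression arrays. They were set against 4 other sorted amacrine populations. The comparison took the 2 PaxCre arrays and the 8 arrays of the starburst, MP, AII and J amacrine cells, 2 arrays each, out of 26 arrays of 13 retinal neuron subtypes. PaxCre cells were GFP+ cells from C57BL/6 mice. Starburst amacrine cells were Kusabira Orange+ and Thy1-, from C57BL/6 mice. MP amacrine cells were CFP+ and VC1.1+, from mixed C57BL/6 x CD1 mice. AII amacrine cells were GFP+, from Swiss Webster x C57BL/6 mice. J amacrine cells, which the labels call glycinergic, were YFP+ and from C57BL/6 mice. All animals were 6 days old, and the labels give no treatment. The labels do not name the promoter behind the PaxCre driver, and the PaxCre, AII and J sorts used fluorescence with no antibody gate, so each population is what its reporter line marks. Strain differs between PaxCre cells and the MP and AII cells, and there subtype and strain cannot be told apart.

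Amacrine cells are the interneurons of the inner retina. They shape the signals that bipolar cells pass to ganglion cells, and nearly all of them release GABA or glycine. GABAergic amacrine cells often spread wide dendrites within a narrow layer of the inner plexiform layer, and many of them also carry a neuropeptide. Glycinergic amacrine cells, of which the AII cell is the best known, are mostly narrow-field cells that connect layers vertically. Subtypes are commonly told apart by transcription factors of the homeobox, bHLH and T-box families and by surface recognition molecules.

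Levels are given as log2(intensity + 16) after quantile normalization over the 26 arrays, so a difference of 1 is 1 log2 unit. The median deposited intensity was 45.5 and 43.5 on the PaxCre arrays, within the 37.4 to 47.1 of the 10 amacrine arrays. The number of arrays limits the precision: with 2 arrays a subtype, the spread was estimated over all 13 subtypes, and p-values cover the spread between sorts of one subtype. In sorted bulk samples, fewer cells that express a gene and less RNA per cell cannot be told apart. A gene was called when its limma difference, PaxCre minus the mean of the 4 other amacrine subtype means, was at least 1 in size and had a Benjamini-Hochberg adjusted p under 0.05.

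The transmitter genes matched the GABAergic label. Gad1, which makes GABA from glutamate, stood at 12.15 and 12.44 on the PaxCre arrays. It stood at 12.19 and 12.59 in starburst cells, 11.24 and 10.40 in J cells, 5.95 and 6.45 in MP cells and 5.78 and 5.73 in AII cells. PaxCre and starburst cells overlapped for Gad1, and the J cells, although labelled glycinergic, lay far closer to them than to the MP and AII cells. Gad1 was called higher in PaxCre cells by 3.51 ± 0.38 (SE; limma, adjusted p = 2.86e-06), but against the starburst and J subtypes alone, the other C57BL/6 ones, the difference was 0.69 and missed the threshold (limma, adjusted p = 0.407). Slc32a1, the vesicular transporter that loads both GABA and glycine, was at 11.20 and 11.48 in PaxCre cells and between 10.34 and 11.65 on the other 8 arrays, and was not called. Slc6a9, the plasma membrane glycine transporter of glycinergic cells, was at 8.44 and 8.13 in PaxCre cells. It was at 11.81 and 11.68 in AII cells, 11.43 and 11.95 in J cells, 9.66 and 9.08 in MP cells, and 5.86 and 6.17 in starburst cells. PaxCre cells thus lay between the starburst cells and the 3 other subtypes for Slc6a9. Slc6a9 was called lower by −1.42 ± 0.18 (limma, adjusted p = 1.63e-05), but it was not called lower against the starburst and J subtypes alone. Its call was lost in 5 of the alternative settings, and its difference at the weakest was −0.56. Pax6, a homeobox gene of all amacrine cells, was at 11.35 and 11.44 in PaxCre cells and 9.92 to 11.39 on the others, and was not called.

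Markers bore on 2 of the other labels. The starburst cells were sorted as Thy1-, a gate on a surface protein, yet their arrays held Thy1 RNA at 9.64 and 10.33, against 5.59 and 6.34 in PaxCre cells, and the J cells carried Gad1 as given above. Both are therefore also left out in turn. Without the starburst cells in the contrast, 1242 genes were called (881 higher and 361 lower in PaxCre cells), and without the J cells 1165 (841 higher and 324 lower), against 912 with all 4.

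Over all 13951 genes tested, 694 (4.97%) were called higher in PaxCre cells and 218 (1.56%) lower, together 912 (6.54%), while 3756 had an unadjusted p under 0.05 and the median difference was 0.03. Both PaxCre arrays lay at least 1 log2 unit above all 8 other amacrine arrays for 98 genes (0.702%), and at least 1 below all 8 for 5 genes (0.0358%). The 5 were Ret, Spsb4, Crtac1, Grik2 and Sertad4. Sertad4 is named after its values were seen. Counted the same way, one subtype against the other 4, starburst cells had 167 genes above and 109 below, MP cells 74 and 57, AII cells 122 and 256, and J cells 21 and 8. These counts for the 4 other subtypes share the PaxCre arrays. When the 4 subtype means were used as the units in place of arrays, so that the spread between the other subtypes entered the error, limma called no gene (lowest adjusted p = 0.0894), and 291 genes, 253 of them higher, had an unadjusted p under 0.05. The 912 calls therefore speak of these 5 sorted subtypes and not of amacrine subtypes in general.

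Crh and Tac1, both neuropeptide genes, ranked 1 and 4 by difference among the genes called higher without overlap. Crh encodes corticotropin-releasing hormone, the peptide that starts the pituitary stress response and that some amacrine cells make. Its deposited intensity was 943 and 1594 on the PaxCre arrays and at most 12.2 on any of the other 8. On the log2 scale it averaged 10.42 in PaxCre cells against 4.09 to 4.92 on the other amacrine arrays, with a gap of 5.08 between the groups. The difference of 5.87 ± 0.41 (58.5-fold; limma, adjusted p = 1.5e-08) was the widest of the genes called without overlap. Crh was not confined to PaxCre cells in the wider series: the W7 ganglion cells were at 11.33 and 11.60, above PaxCre, and the Isl2 and W3 ganglion cells at 9.51 to 9.68. The 2 bipolar subtypes were at 4.53 to 5.03.

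Tac1, the precursor of substance P and neurokinin A, was at 12.05 and 12.18 in PaxCre cells. J amacrine cells had it too, at 11.37 and 10.18, whereas starburst, MP and AII cells were at 5.18 to 5.96. The difference of PaxCre from the mean of all 4 was 5.20 ± 0.29 (limma, adjusted p = 1.39e-09), and the groups did not overlap, with a gap of 0.68 to the nearer J array. All 6 ganglion subtypes also carried Tac1, from 8.93 in W7 to 12.42 in Cdh3 ganglion cells. A second, dim probe set of Tac1 differed by 0.07. Cartpt, the precursor of the CART peptides, was at 8.86 and 8.04 in PaxCre cells, at 8.71 and 5.90 in J cells and at 4.64 to 5.45 on the other 6 amacrine arrays. It was called higher by 2.86 ± 0.55, a call that was lost without PaxCre replicate 1 (difference 2.44; limma, adjusted p = 0.0595).

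Among the 25 neuropeptide genes listed, 24 were on the array and 14 were tested. Of the 14, 3 were called higher (Crh, Tac1 and Cartpt) and 1 lower, against 4.97% and 1.56% of all genes tested, and 10 neither. Their median difference was 0.20. The lower one was Pnoc, the nociceptin precursor, at 5.88 on average in PaxCre cells, against 10.69 in starburst cells and 5.59 to 5.97 in the other 3 subtypes. Its call rested on the starburst cells, since without them the difference was 0.11, and it was lost without PaxCre replicate 1 (limma, adjusted p = 0.0617). Npy, which marked the starburst sort at 12.50, averaged 7.92 in PaxCre cells and was not called, and Vip averaged 6.08 in PaxCre cells against 5.47 to 6.19 in the 4 others. Of 13 peptide receptor genes tested, limma called 3 higher and 0 lower, and 0 were lower at an unadjusted p under 0.05. Tacr3, the neurokinin B receptor, was at 8.03 and 9.37 in PaxCre cells and 5.57 to 7.62 on the other arrays, a difference of 2.19 ± 0.26. Sstr2, a somatostatin receptor, averaged 8.38 in PaxCre cells and 8.01 in J cells, against 5.20 to 5.73 in the other 3. Adcyap1r1, the PACAP receptor, averaged 7.46 in PaxCre cells, below the 7.92 of J cells, and its call of 1.03 was lost without PaxCre replicate 2 (limma, adjusted p = 0.0776) and with its second brightest probe set, which gave −0.17.

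Lhx9, a LIM homeodomain transcription factor, was at 11.00 and 10.75 in PaxCre cells. It was at 7.86 on both J arrays and at 4.39 to 5.41 on the other 6 amacrine arrays, so that J cells stood between PaxCre cells and the rest. The difference was 5.30 ± 0.33 (limma, adjusted p = 3.52e-09), and 2 further Lhx9 probe sets gave 5.16 and 4.66 while another, dim one gave −0.08. Outside the amacrine class the highest array was one of J ganglion cells at 7.35, so that both PaxCre arrays lay at least 1 log2 unit above all 24 other arrays of the series. That held for 30 of the 13951 genes tested. Maf, a large Maf bZIP factor, was at 12.12 and 11.82 in PaxCre cells. The other amacrine arrays covered a wide range, 5.23 and 5.39 in starburst, 7.14 and 6.45 in AII, 6.98 and 9.18 in MP and 9.92 and 8.44 in J cells. The groups did not overlap, and the difference was 4.63 ± 0.49 (limma, adjusted p = 2.34e-06). Maf was also among the 30 genes, with J ganglion cells next at 9.82 and 10.38.

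Tnc encodes tenascin-C, a glycoprotein of the extracellular matrix. It was at 11.55 and 11.34 in PaxCre cells, at 9.42 and 7.97 in J cells and at 4.90 to 6.24 on the other 6 amacrine arrays. The difference was 5.33 ± 0.31 (limma, adjusted p = 1.41e-09), and a second probe set gave 3.72. The 5 genes Crh, Lhx9, Tac1, Tnc and Maf were thus all high on both PaxCre arrays. They were listed as markers with earlier results of these data known, and the cells were sorted by GFP and not by these genes. Crh was the one of the 5 that was as low in J cells as in the other 3 subtypes.

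The promoter windows that RefSeq gives for 3 of these genes (build GRCm38.p6, 5′ to 3′ on the gene's strand) are shown because the genes stood highest together with a LIM homeodomain factor. Crh and Maf are named only. The windows lie at chr1:138842395-138842694 on the minus strand for Lhx9, chr4:64046966-64047265 on the minus strand for Tnc, and chr6:7554811-7555110 on the plus strand for Tac1. Capitals mark TATAAA in the Tnc window and TAATTA, a core that LIM and many other homeodomain proteins read, in the Tac1 window.
Lhx9: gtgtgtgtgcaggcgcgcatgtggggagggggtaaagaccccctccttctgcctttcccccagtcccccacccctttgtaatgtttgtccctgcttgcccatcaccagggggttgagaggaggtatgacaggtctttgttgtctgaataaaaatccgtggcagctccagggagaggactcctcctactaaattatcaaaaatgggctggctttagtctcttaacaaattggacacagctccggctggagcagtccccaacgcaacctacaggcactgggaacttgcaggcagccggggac
Tnc: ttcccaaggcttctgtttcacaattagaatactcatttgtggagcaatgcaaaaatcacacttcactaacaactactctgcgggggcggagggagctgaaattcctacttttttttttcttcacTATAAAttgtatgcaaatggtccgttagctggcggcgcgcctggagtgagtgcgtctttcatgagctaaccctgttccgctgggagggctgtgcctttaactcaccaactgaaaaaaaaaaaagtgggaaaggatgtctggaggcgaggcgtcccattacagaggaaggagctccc
Tac1: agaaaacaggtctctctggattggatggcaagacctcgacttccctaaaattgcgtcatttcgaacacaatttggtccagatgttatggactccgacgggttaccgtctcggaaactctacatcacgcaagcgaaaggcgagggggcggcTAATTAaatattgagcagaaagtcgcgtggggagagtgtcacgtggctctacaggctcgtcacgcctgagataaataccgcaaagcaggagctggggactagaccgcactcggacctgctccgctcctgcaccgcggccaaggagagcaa
The motifs searched on both strands were the cAMP response element TGACGTCA, the box TATAAA, the homeodomain core TAATTA and the AP-2 motif GCCNNNGGC. The first base of TAATTA lay at −100 from the Tac1 start, and that of TATAAA at −126 from the Tnc start of the window shown. Of 9 genes among the 15 highest that had a window, 1 held TAATTA and 1 held TATAAA in any window, and 0 held TGACGTCA or GCCNNNGGC. Among all 32851 windows of the table, 5.29% held TAATTA, 13.6% TATAAA, 1.79% TGACGTCA and 16.6% GCCNNNGGC. These shares are per window and the counts are per gene, and some genes had several windows, so they are not like for like. A match of letters is a description of these windows.

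**Figure D1:**
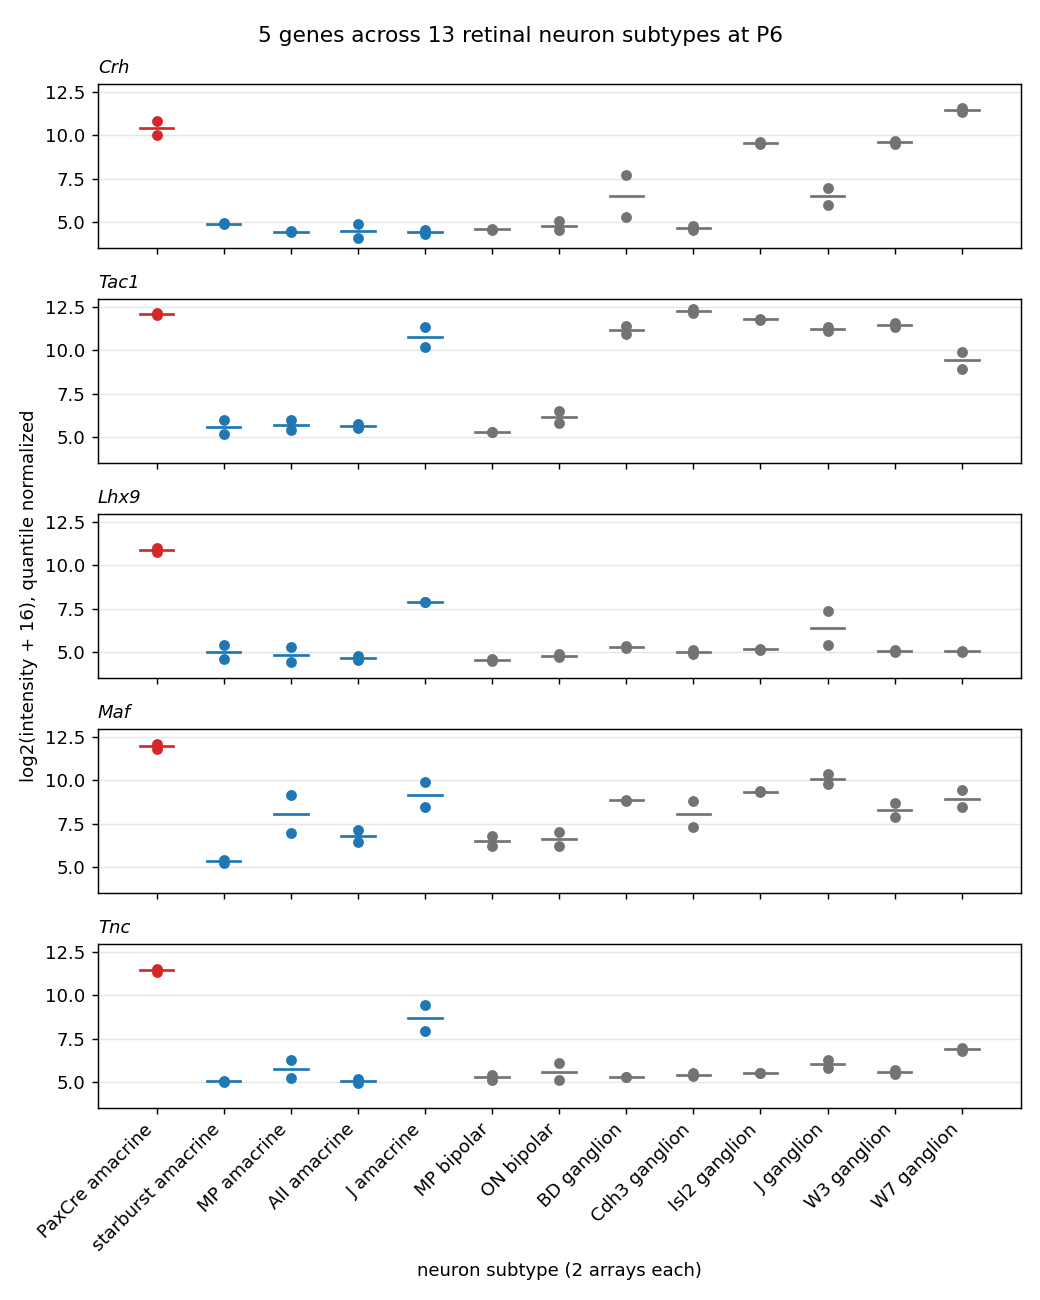
Level of Crh, Tac1, Lhx9, Maf and Tnc on a log2 scale (y axis) in 13 subtypes (x axis), PaxCre in red at the left, the other amacrine subtypes in blue, bipolar and ganglion cells in grey. Each point is 1 array and each bar the mean of 2 arrays. PaxCre is the top subtype for Lhx9, Maf and Tnc, whereas W7 ganglion cells are above it for Crh and Cdh3 ganglion cells for Tac1.

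The 15 highest genes by difference, among those called and without overlap, ran from Crh at 5.87 to Kcns2 at 4.16. PaxCre was the top subtype of all 13 for 12 of them. The exceptions were Crh, topped by W7 ganglion cells, and Tac1 and Eomes, topped by Cdh3 ganglion cells. Cxcl12, a chemokine that guides migrating cells and axons, was at 10.88 and 10.44 in PaxCre cells and at 4.90 to 8.28 on the other amacrine arrays. Aldh1a1, which makes retinoic acid, was at 10.22 and 10.81 in PaxCre cells, with MP cells next at 7.92 and 7.58 and starburst and AII cells at 4.25 to 4.82. The 2 J arrays differed for Aldh1a1, at 6.69 and 4.29.

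Efemp1, which encodes the matrix protein fibulin-3, was at 9.46 and 9.71 in PaxCre cells and at 4.29 to 5.53 on every other amacrine array, a difference of 4.82 ± 0.42. Mmp9, a secreted protease that cuts matrix proteins, was at 8.63 and 9.26 in PaxCre cells against 4.14 to 6.12. For these 2 genes and Crh, J cells were as low as the rest. Eomes, a T-box factor, was at 10.82 and 10.84 in PaxCre cells against 5.12 to 7.56, and its second probe set gave 5.10. Tfap2e, of the AP-2 family, was at 10.68 and 10.14 in PaxCre cells and at 9.74 and 9.78 in J cells, while starburst, MP and AII cells lay at 4.09 to 4.77. For Gas7 and Filip1l too J cells were next, at 9.50 and 10.08 at most, with PaxCre cells at no less than 11.03 and 10.90. Lpl (lipoprotein lipase) was at 12.51 and 12.48 in PaxCre cells, 10.98 and 11.02 in J cells, 8.86 and 9.09 in starburst cells, 5.61 and 8.69 in MP cells and 5.63 and 5.93 in AII cells. Kcns2, a modulatory potassium channel subunit, was at 10.83 and 10.76 in PaxCre cells against 5.02 to 8.75.

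**Figure D2:**
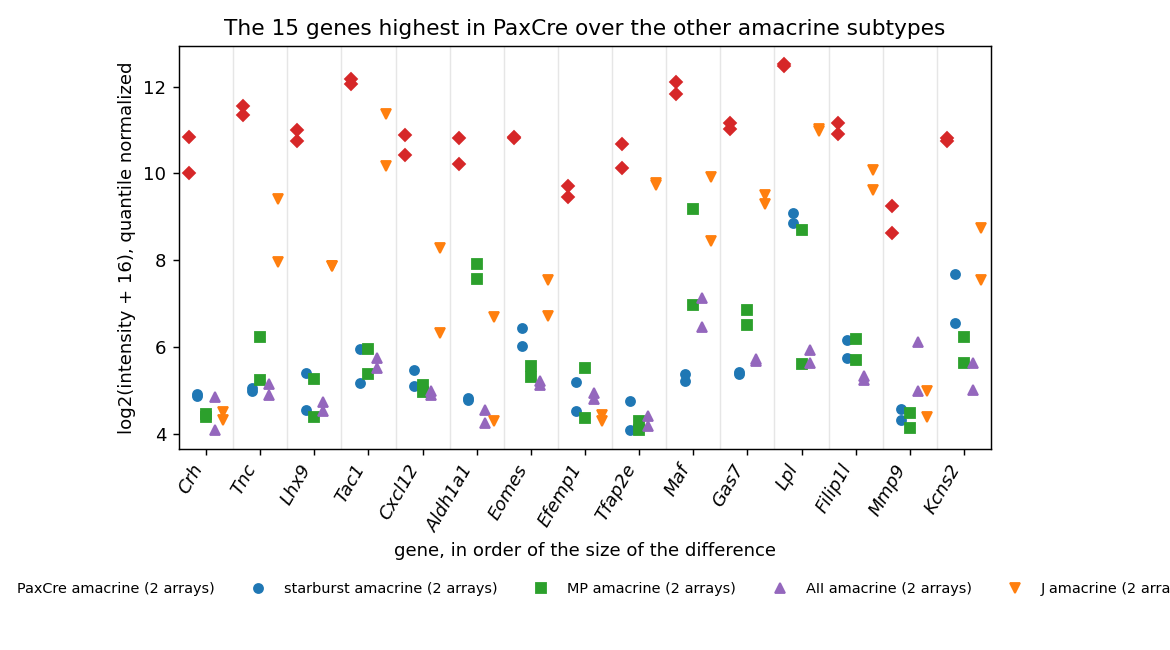
The 15 genes with the largest positive difference (x axis) and their level on a log2 scale (y axis). Each symbol is 1 array, with PaxCre in red at the left of each gene and starburst, MP, AII and J cells to its right. Both PaxCre arrays lie above all 8 others for each gene, and J cells are next for 11 of the 15.

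Of the 4 subtypes, J cells were nearest to PaxCre cells among the higher genes and in the correlation of arrays. J was the highest of the 4 others for 11 of the 15 highest genes (73.3%), for 51 of the 98 genes with a gap of at least 1 (52.0%) and for 285 of the 694 genes called higher (41.1%), where it was the highest for 2775 of all 13951 genes tested (19.9%). Among the 218 genes called lower, starburst cells were the lowest of the 4 others for 48.2%, against 23.9% of all genes tested, and J cells for 28.4%, against 23.1%. Over the 2000 most variable genes the PaxCre arrays correlated with the J arrays at 0.788 to 0.852, against 0.637 to 0.655 with starburst, 0.616 to 0.68 with MP and 0.57 to 0.61 with AII arrays. The PaxCre replicates correlated at 0.972. The genes are not independent and all arrays share 1 normalization, so these correlations are a description. Of 15 amacrine class genes tested, 5 were called higher and 1, Neurod1, lower, against 4.97% and 1.56% of all genes tested. The higher ones included AP-2 and Meis members that J cells shared. Neurod1 averaged 10.27 in PaxCre cells and 9.72 to 12.25 in the 4 others, and its call (difference −1.07; limma, adjusted p = 0.0459) was lost in 19 of the 30 alternatives, among them without PaxCre replicate 2 (difference −0.31; limma, adjusted p = 0.79). Tfap2c was at 12.44 and 12.37 in PaxCre cells and 11.51 and 11.40 in J cells, with MP cells next at 9.13 and 10.19, and Meis2 at 13.02 and 12.91 in PaxCre cells, 12.73 and 12.22 in J cells and 10.91 and 11.25 in MP cells. Starburst and AII cells had 5.33 to 6.78 for Tfap2c and 6.21 to 7.08 for Meis2. Nr4a2, an orphan nuclear receptor, was higher in J than in PaxCre cells, at 11.08 and 10.86 in PaxCre cells against 12.24 and 11.83 in J cells, and at most 7.06 in the other 3 subtypes.

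Most members of a list named for glycine transport and the glycinergic fate were called lower in PaxCre cells, against 1.56% of all genes tested. Of 9 such genes tested, 0 were called higher by limma (also 0 higher at an unadjusted p under 0.05), 7 lower and 2 neither, with a median difference of −1.98 against 0.03 for all genes tested. The list was drawn up with earlier results of these arrays known. Its name does not mean that each member marks glycinergic cells, since Ebf1, Ebf3 and Neurod6 were low in AII cells. Ebf3, an early B-cell factor, was at 7.06 and 5.14 in PaxCre cells, 12.10 and 12.13 in MP cells and 10.89 and 11.28 in J cells, but at 5.08 to 5.93 in starburst and AII cells. Its relative Ebf1 averaged 5.94 in PaxCre cells, 11.88 in MP and 11.96 in J cells. Ppp1r17, a phosphatase inhibitor, was at 5.83 and 5.15 in PaxCre cells against 9.77 to 11.37 in MP, AII and J cells, a difference of −3.72 ± 0.27 (limma, adjusted p = 2.33e-08), with starburst cells as low at 5.23 and 4.99. Neurod6, a bHLH factor of some amacrine cells, was at 4.45 and 4.22 in PaxCre cells against 10.92 and 10.86 in MP and 7.84 and 8.17 in J cells, and near the bottom of the scale in starburst and AII cells. The calls of Neurod2 and Tcf4 were lost without PaxCre replicate 2 (limma, adjusted p = 0.825 for Neurod2 and 0.297 for Tcf4), and the whole list then had 5 lower. The starburst mean was below the PaxCre mean for each of the 7, and the AII mean was below it for Ebf1 and Ebf3. Against the C57BL/6 subtypes alone, starburst and J, 4 of the 9 were called lower and the median was −0.56, and without the starburst cells 7 were lower and the median was −3.18.

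**Figure D3:**
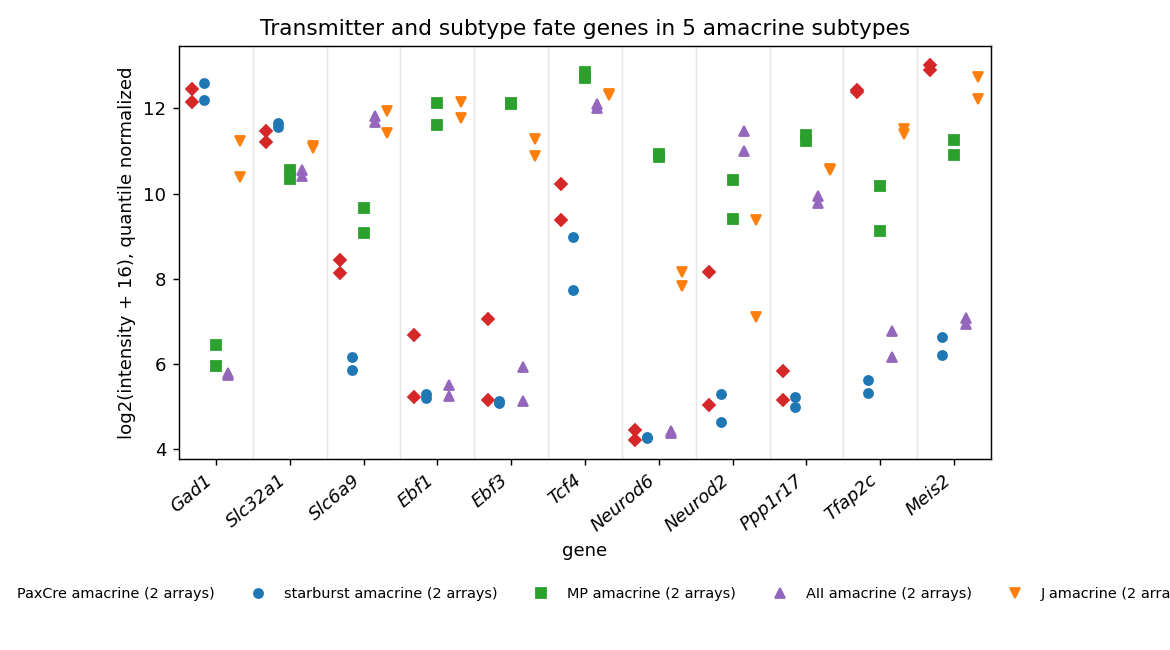
Transmitter, glycinergic fate and amacrine transcription factor genes (x axis) with their level on a log2 scale (y axis). Each symbol is 1 array, PaxCre in red at the left of each gene. Gad1 is high in PaxCre, starburst and J cells, Ebf1, Ebf3 and Neurod6 are high in MP and J cells, and Ppp1r17 is high in MP, AII and J cells.

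Lists named for other subtypes depended on which subtypes stood in the contrast. Of 9 cholinergic and starburst genes tested 1 was higher (Tenm3) and 2 lower (Isl1 and Megf10), and of 10 AII genes 0 were higher by limma (1 at an unadjusted p under 0.05) and 3 lower (Prox1, Slc6a9 and Nfia), where 6.54% of all genes tested were called. Against the C57BL/6 subtypes alone, 1 of the 9 cholinergic and starburst genes was higher and 6 were lower, with a median of −1.5 against −0.60 with all 4, and without the starburst cells 1 was higher and 0 were lower by limma. The AII list turned to 2 higher and 0 lower by limma against the C57BL/6 subtypes, with a median of 0.39 against −0.55 with all 4. Megf10, a mosaic-spacing receptor of starburst cells, averaged 6.01 in PaxCre cells, 12.19 in starburst cells and 5.51 to 7.68 in the other 3, and its call was lost without the starburst cells (limma, adjusted p = 0.36). Nfia averaged 7.01 in PaxCre cells, 11.52 in AII cells and 6.32 to 8.37 in the other 3, and without the AII cells its difference was −0.10 (limma, adjusted p = 0.883).

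Transcription factor genes were called in both directions, more often higher, as were 76.1% of all 912 genes called. The shares of all genes tested were 4.97% higher and 1.56% lower. Of 14 LIM homeobox and LMO genes tested out of 18, 5 were higher, 1 lower and 8 neither, and 3 were higher and 2 lower against the C57BL/6 subtypes alone. Lhx2 was at 7.78 and 7.91 in PaxCre cells, 6.14 and 6.22 in J cells and 4.09 to 5.62 elsewhere, a difference of 2.94 ± 0.38. Lmo4, a LIM-only protein that binds LIM cofactors, averaged 8.26 in PaxCre cells against 6.63 to 7.40, and Ldb2, such a cofactor, averaged 9.94 in PaxCre cells, below the 10.75 of J cells. Lhx3, at a difference of 1.01, lost its call without either PaxCre replicate (limma, adjusted p = 0.0746 without replicate 1 and 0.168 without replicate 2). Isl1 was the lower one, at 7.82 in PaxCre cells, 12.81 in starburst, 10.25 in MP, 9.73 in AII and 5.72 in J cells on average, and it was no longer called without the starburst cells (difference −0.74).

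Of 25 other homeobox genes tested, 7 were higher and 1, Prox1, lower, against 4.97% and 1.56% of all genes tested. Gbx2 was at 6.95 and 7.43 in PaxCre cells and at 4.13 to 4.89 on all 8 others, a difference of 2.77 ± 0.18 (limma, adjusted p = 5.34e-09). Pou3f1, a POU factor, averaged 7.92 in PaxCre cells against 4.32 to 5.73. Zfhx3 and Zfhx4 averaged 12.02 and 9.92 in PaxCre cells, with starburst cells next at 11.08 and 9.30. Prox1, which marks AII cells among others, averaged 7.29 in PaxCre cells, 11.69 in AII cells and 6.49 in starburst cells. Of 34 nuclear receptor and zinc-finger or other subtype factors tested, 10 were higher, 3 lower and 21 neither. Bcl11b, Foxp1, Tshz1 and Tshz2 averaged 10.46, 11.40, 10.65 and 8.09 in PaxCre cells, with the next amacrine subtype at 8.50, 9.16, 8.84 and 5.79. Bcl11b had a second probe set that gave −0.15. Satb1 averaged 9.45 in PaxCre cells, the lowest of the 13 subtypes, against 9.86 to 11.36 in the 4 others, and Tbx2 was likewise lowest at 6.81 and 6.58 in PaxCre cells against 7.67 to 9.95.

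Recognition and adhesion genes that were called were mostly higher, as were 76.1% of all genes called. The share of all genes tested called higher was 4.97%, and 1.56% were lower. All 8 delta protocadherins tested, out of 9 listed, were called higher, with a median difference of 1.999 and differences from 1.03 (Pcdh18) to 3.20 (Pcdh7). Delta protocadherins are cadherin-related proteins that mediate contact between like cells. Pcdh7 was at 10.99 and 10.68 in PaxCre cells, 10.13 and 10.62 in starburst cells, 9.21 and 8.46 in J cells and 4.87 to 6.30 in MP and AII cells. Its neighbours in the list showed the same mixture, since for each of the 8 the mean of at least 1 other subtype lay within 1 log2 unit of PaxCre cells or above them. Pcdh9, Pcdh10 and Pcdh18 averaged 11.60, 10.51 and 9.08 in PaxCre cells and 11.86, 11.43 and 10.55 in starburst cells, and Pcdh19 averaged 10.72 in PaxCre cells and 10.66 in AII cells. Against the C57BL/6 subtypes alone, starburst and J, 5 of the 8 were called higher and 1 lower, and Pcdh10 turned to −0.43. With the median over probe sets 5 of 8 were called.

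Of 31 teneurin, latrophilin and leucine-rich repeat genes tested, limma called 15 higher and 0 lower, against 4.97% and 1.56% of all genes tested. The median difference was 0.97, and 0 were lower at an unadjusted p under 0.05. Against the C57BL/6 subtypes alone 9 were higher and 2 lower. Tenm4 averaged 10.22 in PaxCre and 10.11 in J cells, against 5.12 to 7.31 in the other 3, and Tenm1 10.42 in PaxCre and 9.87 in J cells, against 6.10 to 8.63. Slitrk6, which promotes neurite growth and synapse formation, averaged 7.68 in PaxCre cells and 4.34 to 5.39 in the other 4. Of 29 immunoglobulin superfamily genes tested, 12 were higher and 1, Cntn6, lower, but 6 were higher against the C57BL/6 subtypes alone and 7 of 27 with the median over probe sets. Alcam averaged 10.77 in PaxCre cells against 5.44 to 9.28, and Dscam, which spaces the cells of one amacrine type apart, averaged 10.79 in PaxCre cells with J cells next at 10.35. Cntn6, a contactin, was at 6.97 and 7.74 in PaxCre cells against 8.54 to 10.40, lowest of the 13 subtypes. Of 12 cadherins tested, 5 were higher and 1 lower (3 higher with the median over probe sets). Cdh4 (R-cadherin) averaged 10.46 in PaxCre cells against 7.30 to 7.86. Cdh1 (E-cadherin) was at 4.65 and 4.30 in PaxCre cells, with MP and J cells as low at 4.50 to 4.81 and starburst and AII cells at 10.77 to 11.41.

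Among 37 guidance genes tested, 9 were higher, 2 lower and 26 neither, against 4.97% higher and 1.56% lower of all genes tested. With the median over probe sets 4 of 34 were higher. Robo1, a Slit receptor, was at 11.41 and 11.03 in PaxCre cells and 9.52 and 10.59 in J cells, against 5.27 to 7.04 on the other 6 arrays, a difference of 4.11 ± 0.32. A second Robo1 probe set gave 0.16. Slit2, a ligand of that receptor, averaged 12.05 in PaxCre cells against 10.05 to 10.93. Plxnc1, a semaphorin receptor, averaged 10.28 in PaxCre cells against 7.26 to 8.70. Nrp2 and Sema3d were the lower ones. Nrp2 averaged 7.36 in PaxCre cells, 9.41 to 11.10 in MP, AII and J cells and 5.95 in starburst cells. Sema3d averaged 5.24 in PaxCre and 4.63 in J cells, against 8.16 to 10.04 in the other 3.

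In the matrix list, 6 of 29 genes tested were higher and 1 lower, against 4.97% and 1.56% of all genes tested. Besides Tnc these included Reln, at 12.45 and 12.34 in PaxCre cells, near the starburst cells at 12.12 and 12.16 and the J cells at 11.29 and 11.22, and far above MP and AII cells at 7.38 to 8.18. Sparcl1 averaged 9.10 in PaxCre cells against 5.60 to 7.01. Lama1, a laminin chain, was lower, at 5.78 in PaxCre cells against 6.21 to 8.58. Among 13 integrins tested, limma called 0 higher, although 2 were higher at an unadjusted p under 0.05, and 3 lower, against 1 lower without the starburst cells. Itga4 averaged 6.19 in PaxCre cells, 11.17 in starburst and 10.10 in AII cells, and 5.83 and 6.23 in MP and J cells.

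Among trophic factors and their receptors, Ret fell and Ngfr rose with wide gaps. Ret, the signalling receptor for GDNF family ligands, was at 7.69 and 7.90 in PaxCre cells against 10.87 to 11.85 on all 8 other amacrine arrays. The groups lay 2.98 apart, and the difference was −3.65 ± 0.14 (12.5-fold; limma, adjusted p = 8.63e-12). A second, dimmer Ret probe set gave −0.34 and no call (limma, adjusted p = 0.377). Gfra2, a coreceptor that passes neurturin signals to Ret, averaged 10.18 in PaxCre cells, 11.12 in AII cells and 4.64 to 8.22 in the other 3, and was called higher by 2.19. Ngfr, the p75 neurotrophin receptor, was at 8.12 and 8.55 in PaxCre cells and at 4.17 to 4.80 on the other 8 arrays, a difference of 3.83 ± 0.24 (limma, adjusted p = 4.41e-09). Fgf1 was at 5.67 and 6.08 in PaxCre cells against 6.70 to 8.83 and was the lowest of the 13 subtypes. Over the list of 29 tested, 7 were higher and 4 lower, against 4.97% and 1.56% of all genes tested. With the C57BL/6 subtypes alone in the contrast, 2 were lower.

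In the Wnt and BMP list 6 of 26 were higher and 1 lower, where 4.97% and 1.56% of all genes tested were. With the median over probe sets 4 of 20 were higher and 2 lower. Dkk3 averaged 11.03 in PaxCre cells against 6.84 to 8.69, Sfrp1, a secreted Wnt binding protein, 8.74 against 5.25 to 7.02, and Id4, an inhibitor of bHLH factors, 12.57 in PaxCre cells against 11.94 in starburst, 10.81 in J and 6.80 and 6.91 in MP and AII cells. Sfrp1 had a second probe set at 0.07. Lgr5, an R-spondin receptor, was the lower one, at 5.59 in PaxCre and 5.05 in starburst cells against 9.99 to 11.47 in MP, AII and J cells.

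The 15 lowest genes by the same rule ran from Spsb4 at −3.67 to Zfpm2 at −1.85. Spsb4, an adaptor of a ubiquitin ligase, was at 7.18 and 6.53 in PaxCre cells against 10.05 to 10.76 on all 8 others, and its second probe set gave −3.49. Crtac1, a secreted protein of cartilage and brain, was at 5.29 and 5.60 in PaxCre cells against 7.16 to 9.79, and its second probe set gave −2.36. Grik2, a kainate receptor subunit, was at 8.79 and 8.52 in PaxCre cells against 9.87 to 11.68, a difference of −2.17 ± 0.23 (limma, adjusted p = 1.96e-06). A second, dim Grik2 probe set gave −0.51. For these 3 and Ret, all 8 other arrays stood at least 1 log2 unit above PaxCre cells. For several of the rest, 1 or 2 subtypes stood far above the others. Kcnj5, an inward rectifier potassium channel subunit, was at 5.13 and 4.38 in PaxCre cells, 7.65 to 8.17 in MP and AII cells and 5.41 and 5.95 in starburst cells. Traip and BC034090 were highest in AII cells, at 9.82 and 10.06 for Traip and 11.87 on both arrays for BC034090, against 5.49 and 5.80 for Traip and 8.54 and 7.45 for BC034090 in PaxCre cells. The second probe sets of Kcnj5, Traip and Zfpm2 gave smaller differences of −0.39, −0.48 and −0.36, and that of Pxylp1 gave −1.71.

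Clec7a and Srgn, genes of myeloid cells, were among the 15 lowest. Clec7a was at 4.31 and 4.72 in PaxCre cells, 9.79 and 8.60 in AII cells, 6.51 and 8.15 in MP cells and 4.85 to 5.90 in starburst and J cells. Srgn was at 4.32 and 4.17 in PaxCre cells and 10.06 and 8.55 in AII cells, but at 4.37 and 4.73 in J cells and 5.05 to 6.38 in starburst and MP cells. The summed microglia list of 9 tested genes averaged 5.50 and 5.59 in PaxCre cells against 5.61 to 7.68 on the other amacrine arrays, and its part in these 2 differences was not tested. Clec7a lost its call without either PaxCre array (limma, adjusted p = 0.176 without replicate 1 and 0.108 without replicate 2), and Srgn without replicate 2 (limma, adjusted p = 0.0766).

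**Figure D4:**
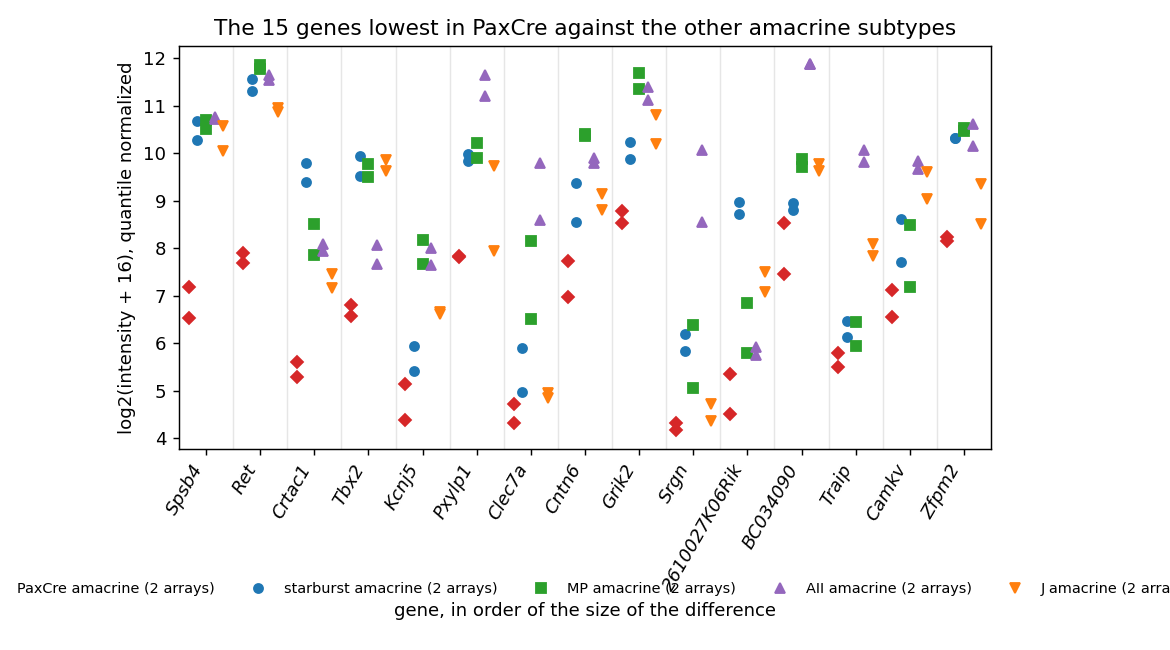
The 15 genes with the largest negative difference (x axis) and their level on a log2 scale (y axis). Each symbol is 1 array, PaxCre in red at the left of each gene. Ret and Spsb4 lie at 6.53 to 7.90 in PaxCre cells and above 10 in all other amacrine arrays, while Clec7a, Srgn and Traip are high mainly in AII cells.

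Channel and receptor genes were mixed, where 4.97% of all genes tested were called higher and 1.56% lower. Of 23 potassium and HCN channel genes tested, 9 were higher, 2 lower and 12 neither, with a median difference of 0.65. Kcna1 was at 11.22 and 10.85 in PaxCre, 11.04 and 10.51 in J and 9.85 and 9.95 in MP cells, against 4.60 to 5.37 in starburst and AII cells. Kcna6 averaged 7.37 in PaxCre cells against 5.13 to 5.79 in the other 4. Kcnh1 was lower, at 5.55 in PaxCre cells with AII cells at 10.47 and starburst cells at 4.70. Of 21 sodium and calcium channel genes tested, 6 were higher and 1 lower, but with the median over probe sets 1 of 20 was higher and 1 lower. Cacna1e, the R-type calcium channel pore, was at 9.62 and 9.33 in PaxCre cells, 8.12 and 5.80 in J cells and 4.30 to 6.12 elsewhere, a difference of 4.11 ± 0.46. Cacna2d3 was the lower one, at 5.72 in PaxCre and 5.67 in starburst cells against 11.50 in MP and 10.13 in J cells. Of 12 GABA-A receptor subunits tested, 1 was higher (Gabrg1, 1.12) and 11 neither, and the Gabrg1 call was lost without PaxCre replicate 2 (limma, adjusted p = 0.259) and its second probe set gave −0.03. Against the C57BL/6 subtypes alone 0 of the 12 were higher by limma and 4 were lower. Glra2 was the one of 5 glycine receptor subunits called, at 10.56 in PaxCre cells and 7.02 in starburst cells, with 9.48 to 10.74 in the other 3, and 0 were called by limma without the starburst cells. Of 14 ionotropic glutamate receptor subunits tested, 3 were higher and 1, Grik2, lower, and with the median over probe sets 1 was higher and 1 lower. Of 6 metabotropic ones 2 were higher (Grm3 and Grm7), whereas against the C57BL/6 subtypes alone 0 were higher by limma and 1 was lower. Of 12 calcium-binding proteins 3 were higher, but 0 higher by limma and 2 lower with the median over probe sets, and 2 higher and 2 lower against the C57BL/6 subtypes alone.

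**Figure D5:**
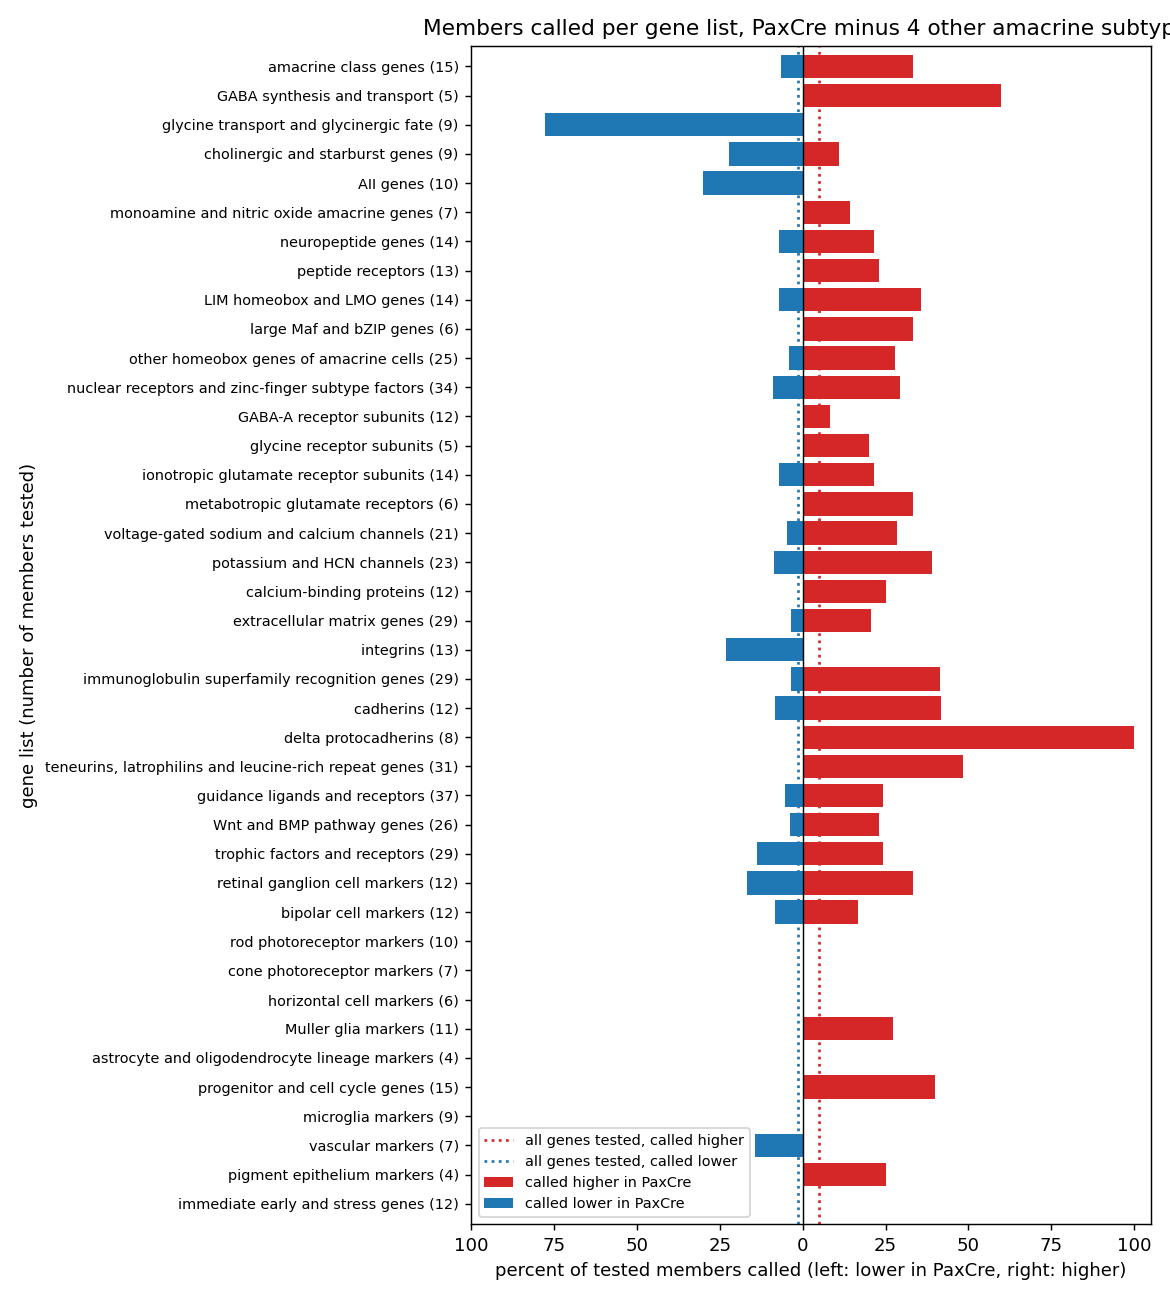
Percent of the tested members of each gene list (y axis, number tested in brackets) called higher (red, right) or lower (blue, left) in PaxCre cells. The line and gate, PaxCre marker and glutamate vesicular transporter lists are not drawn. Dotted lines mark the 4.97% higher and 1.56% lower of all genes tested. The delta protocadherins reach 8 of 8 higher, and the list named for glycine transport and glycinergic fate 7 of 9 lower. The rod, cone, horizontal cell, microglia and stress lists hold no call.

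Markers of other cells were summed on each array. The 15 progenitor and cell cycle genes tested averaged 7.91 and 7.99 in PaxCre cells against 6.52 to 7.36 on the other amacrine arrays. Limma called 6 of the 15 higher, against 4.97% of all genes tested. Mki67, a marker of dividing cells, was at 7.93 and 8.54 in PaxCre cells against 4.66 to 6.57, and Top2a at 7.79 and 8.38 against 4.95 to 6.48. The Mki67 call was lost without PaxCre replicate 2 (limma, adjusted p = 0.0611), and the second Top2a probe set gave −0.16. Lhx2 belongs to this list as well as to the LIM genes, and 4 of the 15 were called without PaxCre replicate 2. The 11 Muller glia genes tested averaged 7.73 and 7.79 in PaxCre cells against 6.18 to 7.62, with Glul, Clu and Dkk3 called higher and Aqp4, at 4.51 in PaxCre cells, near the bottom of the scale. The part of progenitor or glial RNA in the Lhx2 and Dkk3 differences was not tested.

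The 12 ganglion cell genes tested averaged 7.37 and 7.27 in PaxCre cells, within the 5.59 to 8.08 of the other amacrine arrays and below the 11.2 of the ganglion arrays. Of the 12, limma called 4 higher, 2 lower and 6 neither, against 4.97% higher and 1.56% lower of all genes tested. The higher ones were Nefl, Nefm, Gap43 and Stmn2, genes of axons and the neuronal cytoskeleton, and the lower ones Thy1 and Ebf3. In the contrast with the C57BL/6 subtypes alone, 2 of the 12 were higher. Rbpms, Slc17a6 and Sncg, given as values, averaged 5.11, 5.69 and 4.17 in PaxCre cells and were not called. The Nefl and Nefm calls were lost without PaxCre replicate 2 (limma, adjusted p = 0.0603 for Nefl and 0.0827 for Nefm). Thy1, a surface protein of ganglion cells, was at 5.59 and 6.34 in PaxCre cells and 5.12 and 5.33 in AII cells, against 9.94 and 10.82 in MP and 8.62 and 8.97 in J cells. The rod list averaged 8.62 and 7.90 in PaxCre cells, within the 7.39 to 9.61 of the others, with 0 of 10 called by limma and 2 past an unadjusted p under 0.05. Likewise limma called 0 of 7 cone genes (2 unadjusted), 0 of 6 horizontal cell genes (1 unadjusted), 0 of 4 astrocyte and oligodendrocyte genes (1 unadjusted), 0 of 9 microglia genes (1 unadjusted) and 0 of 12 immediate early and stress genes (1 unadjusted). The bipolar list averaged 7.39 and 6.94 in PaxCre cells, within the 6.18 to 8.26 of the others, with Prkca and Prdm8 of 12 called higher and Neurod4 lower. Of 7 vascular genes 1 was lower (Kdr), and of 4 pigment epithelium genes 1 was higher (Mitf, at 9.39 in PaxCre cells against 6.28 to 8.39).

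Across all 26 arrays, the genes whose pattern was most like Lhx9 were Tnc (Pearson r = 0.929), Tfap2e (0.913) and Fibcd1 (0.913), and those most like Tnc were Lhx9 (0.929), Tfap2e (0.916) and Fibcd1 (0.899). Prdm16 (0.849), Adgra1 (0.817) and Klhl1 (0.798) were most like Crh. AI593442 (0.932), A930009L07Rik (0.93) and Lamb1 (0.93) were most like Tac1, and Ccdc88b (0.877), Gng8 (0.862) and Gas7 (0.862) most like Maf. The arrays share 1 normalization and fall into 3 cell classes, so these values describe the series and carry no p. The most alike genes of Crh and Tac1 follow patterns that take in ganglion cells. Those of Lhx9 and Tnc share their peak in PaxCre cells, with J amacrine cells next.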

How the data were processed

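The labels describe RNA of sorted P6 mouse retinal cells on Affymetrix arrays, 2 arrays from different litters for each of 13 subtypes. The authors deposited 1 intensity per probe set and array, on a linear scale. How they were summarised and scaled is not stated in the labels or the file, and 2.87 to 4.02% of each array's values equal 1, while 170 lie below 1. From the deposited intensity, log2(value + 16) was taken and quantile normalized over 26 arrays, and 64 control probe sets were left out. The platform annotation gave 34945 of 45037 probe sets a single symbol, 932 several and 9160 none, and 34741 symbols were updated by gene ID. The probe set with the highest mean stood for each of 18193 genes, and the 13951 genes above the overall median (6.14) on at least 2 arrays were tested.

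A mean per subtype was fitted with limma 3.58.1 in R 4.3.3 (13 residual degrees of freedom), and PaxCre was contrasted with the equally weighted mean of the starburst, MP, AII and J means, two-sided, with Benjamini-Hochberg adjustment over all genes tested. Adding 16 makes the folds of dim genes too small. Named genes were the 15 highest and the 15 lowest among those called without overlap, the called members of 43 gene lists (657 symbols, 618 on the array, 549 tested), the transmitter and line genes, and the 3 genes most correlated with each of 5 markers. Further list members and other genes were named as values. The members and lists were chosen with earlier results of these data known. The procedure was tested on simulated data. The simulated arrays held replicate spread but no differences among the other subtypes, so that test does not speak of the spread between subtypes. Alternatives covered the normalization, pseudocount, filter, probe set rule, arrays in the fit, strain, each subtype and each array left out, and a replicate block.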

Additional observations from a re-analysis of the deposited data

How the results depend on the processing

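Of 156 genes named and called, 75 kept their direction and call in every alternative listed other than subtype means as units, and 92 did so when the 2 other probe set rules were also set aside. The 912 genes called became 596 (457 higher, 139 lower) with a pseudocount of 64 and 0 (0 higher, 0 lower) with subtype means as units, where limma gave 291 genes an unadjusted p under 0.05. Leaving the starburst cells out of the contrast gave 361 lower genes. Leaving out 1 array at a time gave 613 to 991 genes in all and 139 to 248 lower genes, the fewest without PaxCre replicate 2 and the most without starburst replicate 2. Against the C57BL/6 subtypes alone 742 genes were called, 542 higher and 200 lower, of which 512 were among the 912. With the second brightest probe set, differences turned sign for Adcyap1r1 (−0.17), Bcl11b (−0.15), Gabrg1 (−0.0256), Grik1 (−0.43), Hpca (−0.0450), Igfbp5 (−0.20), Kcnma1 (1.13), Slc6a11 (−0.0455) and Top2a (−0.16), and with the median over probe sets for Top2a (−0.0902). Against C57BL/6 subtypes alone Cacna2d2 (−0.12), Nfia (0.53), Pcdh10 (−0.43) and Vcan (−0.11) turned, and Pnoc (0.11) without starburst cells. The cause was not tested. The fit with replicate number as a replicate block called 919 genes (695 higher, 224 lower) and changed no call among the genes followed. Same-numbered samples correlated at −0.133 to 0.174 in their deviations, so they share a number and are not treated as pairs.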

Other observations

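The genes that stood at least 1 log2 unit above all 24 other arrays of the series included several outside the gene lists, named here after their values were seen. Tbx21, a T-box factor related to Eomes, was at 8.59 and 9.32 in PaxCre cells against 4.90 to 6.80 on the 8 other amacrine arrays, a difference of 3.47 ± 0.28. Fibcd1, a membrane receptor for acetylated sugars, was at 8.87 and 8.66 in PaxCre cells against 4.95 to 6.81. Chrna2, a nicotinic acetylcholine receptor subunit, was at 7.61 and 8.05 in PaxCre cells against 4.69 to 5.65. Adarb2, a member of the RNA-editing deaminase family, was at 8.72 and 8.49 in PaxCre cells against 5.52 to 6.65. Ednrb, an endothelin receptor, was at 10.35 and 9.98 in PaxCre cells against 4.78 to 8.49. For Tbx21, Fibcd1, Adarb2 and Ednrb, the highest of the other amacrine arrays was a J array. By subtype mean, AII cells were next for Adarb2, at 6.36 against 6.10 in J cells.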
